A study of Mus musculus with 4 samples.

Results

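Messenger RNA of 8 antigens of the nervous system and the retina was followed in medullary thymic epithelial cells (mTECs). The 8 genes were taken by their symbols from the 23337 genes of the deposited tables, and all 8 were found. They fall into 4 genes of myelin (*Mog*, *Mbp*, *Mag* and *Mobp*), 2 glial genes (*Gfap* and *S100b*) and 2 photoreceptor genes (*Rbp3* and *Sag*). RNA-seq was performed on mTECs sorted as CD45-, EpCAM+, UEA-1+ and Ly51- from thymi of 4-week-old C57BL/6 mice, in 4 libraries. WT 1 and WT 2 came from wild type mice, and the controls of the study did not carry *Foxn1*-cre. The other pair, cKO 1 and cKO 2, whose genotype is given as Sirt6-/- in the labels, came from *Sirt6* cKO mice, in which *Foxn1*-cre deletes floxed *Sirt6*. *Foxn1* drives the recombinase in thymic epithelial cells, and the study describes the deletion as specific to them. Whether other cells of these mice keep *Sirt6* was not tested here. Each library is described as an independent parallel sample, and whether a sample pooled several mice is not given in the sources used here, so p-values measure the spread between these samples.

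mTECs transcribe many genes that are otherwise limited to single peripheral tissues and present their products to developing T cells, so that T cells reactive to them are deleted or turned into regulatory T cells. *Aire* and *Fezf2* encode nuclear regulators on which separate groups of these tissue-restricted antigens depend, and single mTECs each express only some of the antigens at a time. MOG, MBP and other myelin proteins are used to induce experimental autoimmune encephalomyelitis, and the retinal proteins encoded by *Rbp3* and *Sag* are used to induce experimental autoimmune uveitis.

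The counts summed to between 61102704 and 65907745 per library, and a count of 3, the limit that a count of 0 allows, corresponded to 0.0458 to 0.0497 CPM (counts relative to library size, scaled with TMM factors). Such limits cover counting error only. The counts of *Sirt6* itself were 622 and 755 for WT and 882 and 835 for cKO. The targeted gene was thus not lower where the labels give its deletion (log2 fold change 0.37, SE 0.32, adjusted p = 0.800 by edgeR's quasi-likelihood test with Benjamini-Hochberg adjustment). Counts over the whole gene cannot show the loss of single exons, and each direction given here rests on the labels. All 10 mTEC markers were above 0 in each library, but *H2-Aa* and *H2-Ab1*, MHC class II genes that dendritic cells and B cells also express, held 81.1% to 88.3% of their summed level. All 10 summed to 19677 and 18091 CPM in WT and to 19249 and 18166 CPM in cKO, and the groups overlapped. The 8 markers without these MHC class II genes summed to 2306 and 2494 CPM in WT and to 2797 and 3432 CPM in cKO, without overlap. These MHC class II genes were set apart after the values were seen. In bulk RNA, fewer cells that transcribe a gene and less RNA per cell cannot be told apart.

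Some of the zeros in the table need caution. Of 12236 genes with 500 or more counts in at least 1 library, 27 were listed at 0 in another, which was the case for 5 genes in WT 1, 16 in WT 2, 11 in cKO 1 and 2 in cKO 2, some of them in more than 1 library. *Fam177a*, for example, had 2733, 3060 and 3479 counts in the other libraries and 0 in WT 2, and *Wdr89* had 592 to 1519 counts and 0 in cKO 1. These examples were chosen after their values were seen. Where an antigen was at 0, it is therefore given as listed at 0, with each library's count and without a mean. Whether such a 0 was an absence of reads or a failed estimate was not tested.

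Transcripts of the antigens were found at very unequal levels. On the TPM scale, which divides by transcript length, *Mbp* had the highest level of the 8 genes in each library, between 53.8 and 118 TPM. It held between 69.5% and 70.8% of the summed TPM of the 8 genes in WT and between 85.2% and 87.8% in cKO. The next levels were those of *Sag* (5.31 to 13.6 TPM), *Gfap* (5.05 to 11 TPM) and *Mag* (3.39 to 6.12 TPM), whose ranges over the 4 libraries overlapped from each to the next. *S100b* followed at 0.473 to 0.921 TPM, below the range of *Mag*. The lowest levels were those of *Rbp3* (0 to 0.624 TPM), *Mobp* (0 to 0.634 TPM) and *Mog* (0 to 0.734 TPM), whose ranges overlapped with one another and with that of *S100b*. All 8 genes had a count in WT 1, 7 in cKO 1 and 6 each in WT 2 and cKO 2.

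The antigens were next compared between the libraries labelled *Sirt6* cKO and WT, to ask how the deletion of *Sirt6* bears on their transcription. The filter on low counts was passed by 7 of the 8 genes, all but *Mog*. *Mobp* passed it through its WT counts alone. *Mbp* was higher in cKO at an unadjusted p of 0.05 and the other 6 genes did not pass this threshold. Over the 18547 genes tested, 8.58% passed it, 5.27% as higher and 3.32% as lower. At an adjusted p of 0.05, edgeR called 0 of the 7 antigens and 0.00539% of all genes, which is 1 gene. DESeq2 called 1 of the 8 antigens at the unadjusted p, against 10.2% of all genes, and 0 at the adjusted p, against 1.83% of all genes. The log2 fold change was above 0 for 1 antigen and below 0 for 6, with a median of -0.45 beside a median of -0.0047 over all genes tested. In 4 of the 7 tested antigens the libraries of the groups did not overlap in CPM, which was the case for 41.9% of all genes. These were *Mbp*, higher in cKO, and *Mobp*, *S100b* and *Sag*, lower in cKO, where 20.3% of all genes did not overlap in the lower direction. The filter favoured the lower direction of *Mobp*, so its place in these counts and in the median adds no evidence. *S100b* was separated by a small gap, with 0.655 CPM in cKO 2 against 0.676 CPM in WT 2. The smallest two-sided p that an exact permutation of these 4 libraries allows is 0.333.

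**Figure D1:**
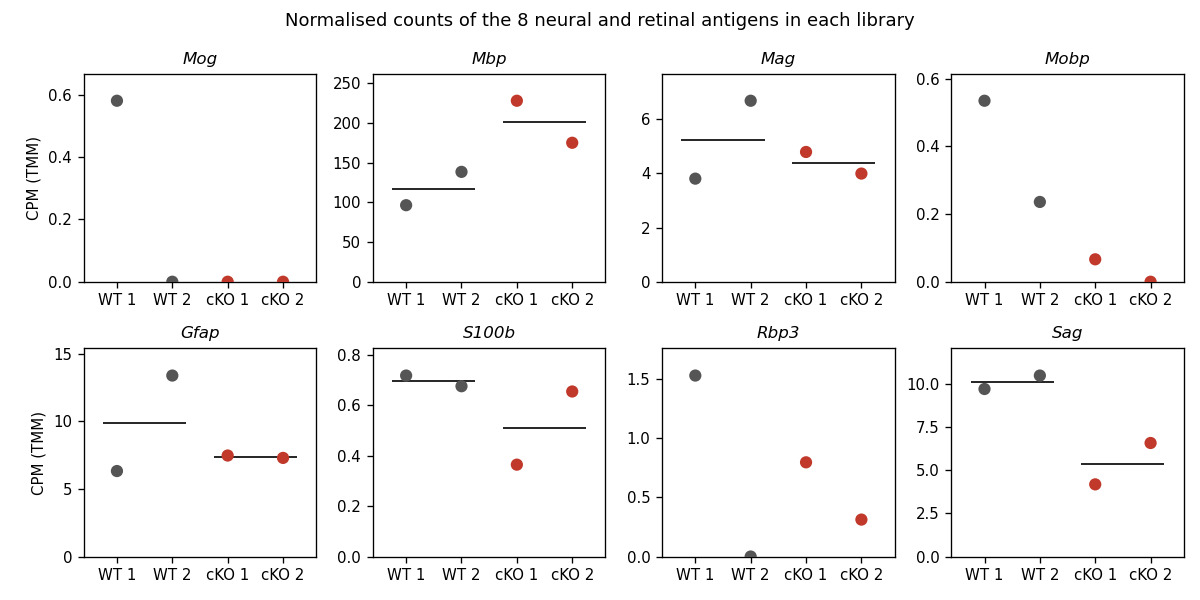
Normalised counts (CPM, linear axes that start at 0 and differ between panels) of the 8 antigens in WT 1, WT 2, cKO 1 and cKO 2, with a horizontal line at the mean of each group where no library is listed at 0. *Mbp* lies above WT in both cKO libraries, *Sag* lies below WT in both, and *Mag* and *Gfap* overlap between the groups with their highest value in WT 2.

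Among the myelin genes, *Mbp* encodes myelin basic protein, which holds the cytoplasmic faces of the myelin membrane together. The gene lies on chromosome 18, and besides the myelin isoforms it encodes golli proteins from an upstream start site, which are also made by thymocytes and other blood cells. The table gave *Mbp* 6308 counts for WT 1 and 8804 for WT 2, against 13754 for cKO 1 and 11223 for cKO 2. Both cKO libraries were above both WT libraries, and the lower cKO library was nearer to the higher WT library than the WT libraries were to each other on the CPM scale (96.4, 138, 228 and 175 CPM in the same order). WT averaged 117 ± 29.7 CPM (SD, n = 2) and cKO 201 ± 37.4 CPM (SD, n = 2), a ratio of 1.72. The log2 fold change was 0.78 with a standard error of 0.26 and a 95% interval from 0.13 to 1.43. It passed the unadjusted threshold but not the adjusted one (adjusted p = 0.543 by edgeR, n = 2 per group). The unadjusted call was lost without WT 1 (log2 fold change 0.52) and without cKO 1 (0.58).

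Counts and TPM of *Mbp* together gave the mean length of the transcripts counted, which shows whether long or short isoforms held most of the reads. This implied length was 3882 bases in WT 1, 3990 in WT 2, 4198 in cKO 1 and 3530 in cKO 2. The WT values lay between those of the cKO libraries. The 16 annotated *Mbp* transcripts span 354 to 4797 bases, so the mean lay towards the long end in each library. Among genes with a single annotated transcript and 100 or more counts, the implied length was within 5% of the annotated one for 70.6% to 71.6%. The golli and myelin isoforms were not separated in the deposited gene values.

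Summed levels of the markers of other cell types are given beside *Mbp*, since some of these cells transcribe the gene. The summed level of 15 thymocyte markers was 1921 and 1364 CPM in WT and 1604 and 1006 CPM in cKO, with none at 0 in any library. The groups overlapped for this sum, and 1 of the 15 markers, the adhesion receptor gene *Cd2*, was lower at the unadjusted p and none higher. The summed level of 8 Schwann cell markers, a cell type of peripheral nerve that transcribes *Mbp*, was 60.3 and 103 CPM in WT and 105 and 77.4 CPM in cKO. It also overlapped between the groups, and *Foxd3* and *Cdh19* were listed at 0 in at least 1 library. The part of these cells in the level of *Mbp* was not tested.

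*Mag* encodes myelin-associated glycoprotein, an adhesion protein of the innermost myelin layer, and lies on chromosome 7 from 30899176 to 30914873 (GRCm38, minus strand). Its counts were 249 (WT 1), 425 (WT 2), 289 (cKO 1) and 256 (cKO 2). WT 2 was the highest, WT 1 the lowest, and the groups overlapped. WT averaged 5.24 ± 2.03 CPM (SD, n = 2) and cKO 4.39 ± 0.564 CPM (SD, n = 2). On the log2 scale the difference was -0.26 (SE 0.51, 95% interval from -1.54 to 1.03, adjusted p = 0.933 by edgeR), and it was 0.21 without WT 2.

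*Mobp* and *Mog* were near the limit of detection. *Mobp* encodes a basic protein of compact myelin and lies on chromosome 9 from 120149707 to 120181484 (plus strand), where 79 of its exon bases overlap *Gm38642*. It had 35 and 15 counts in WT, 4 in cKO 1 and was listed at 0 in cKO 2. The WT libraries were the higher ones, but the standard error of the log2 fold change of -3.47 was 2.16 (adjusted p = 0.714 by edgeR). *Mog* encodes myelin oligodendrocyte glycoprotein of the outermost myelin surface and lies on chromosome 17 from 37010743 to 37023398 (minus strand). It had 38 counts in WT 1 and was listed at 0 in WT 2 and in both cKO libraries, so the WT libraries differed from each other as much as any library differed from another.

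The glial genes did not separate the groups beyond the spread between replicates. *Gfap*, the intermediate filament of astrocytes, lies on chromosome 11 from 102887336 to 102900912 (minus strand) and its counts were 414 (WT 1), 852 (WT 2), 451 (cKO 1) and 468 (cKO 2). WT 2 stood above the other 3 libraries, which lay between 6.32 and 7.47 CPM, and the groups overlapped. WT averaged 9.86 ± 4.99 CPM (SD, n = 2) and cKO 7.38 ± 0.124 CPM (SD, n = 2). The fitted log2 difference was -0.42 (SE 0.47, 95% interval from -1.59 to 0.76, adjusted p = 0.861 by edgeR), and it was 0.22 without WT 2. The ratio of *Mag* to *Gfap* in TPM was 0.672 in WT 1, 0.558 in WT 2, 0.715 in cKO 1 and 0.611 in cKO 2. *Mag* and *Gfap* thus had their highest level in the same library and kept a ratio whose groups overlapped.

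*S100b* encodes a calcium-binding protein of astrocytes and Schwann cells and lies on chromosome 10 from 76253853 to 76261159 (plus strand). WT held 47 and 43 counts of it, and cKO held 22 and 42. Both cKO libraries were below WT, but cKO 2 was almost level with WT 2 (0.655 and 0.676 CPM). WT averaged 0.697 ± 0.0299 CPM (SD, n = 2) and cKO 0.510 ± 0.205 CPM (SD, n = 2). Its log2 fold change was -0.45 (SE 1.21, 95% interval from -3.49 to 2.59, adjusted p = 0.951 by edgeR), an interval that includes changes of several fold in either direction.

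The retinal antigens differed in how steadily they were detected. *Sag* encodes S-arrestin, which binds activated rhodopsin in rod photoreceptors and ends its signal, and lies on chromosome 1 from 87803680 to 87845158 (plus strand). Its counts were 637 (WT 1), 669 (WT 2), 253 (cKO 1) and 423 (cKO 2). The WT libraries were close to each other and both cKO libraries were below them, cKO 1 the farthest. WT averaged 10.1 ± 0.552 CPM (SD, n = 2) and cKO 5.39 ± 1.70 CPM (SD, n = 2), and the ratio of WT to cKO was 1.88. The log2 fold change was -0.91 with a standard error of 0.41 and a 95% interval from -1.93 to 0.11. It did not pass the unadjusted threshold (adjusted p = 0.617 by edgeR, n = 2 per group). It stayed below 0 under each of the 12 alternatives, between -1.29 and -0.62, and passed in none of them. Of the 50-base words of *Sag* transcripts, 3.28% also occur in transcripts of other genes, the highest share among the 8 antigens.

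Both cKO libraries, which had fewer *Sag* counts than both WT libraries, also had a lower summed level of macrophage and dendritic cell markers. The summed level of 11 such markers was 5735 and 3298 CPM in WT and 2102 and 2242 CPM in cKO. Within WT the order was the opposite, since WT 1 had fewer *Sag* counts than WT 2 (637 against 669) and the higher sum. The marker *Lyz2* alone held 4647 and 2815 CPM of the sum in WT and 1778 and 1906 CPM in cKO. All 11 had a log2 fold change below 0, 6 of them passed the unadjusted p of 0.05, and none was at 0 in any library. DESeq2 called 5 of the 11 at an adjusted p of 0.05, and edgeR called 0. The sort for CD45- and EpCAM+ cells is one that removes macrophages and dendritic cells. The summed level of 6 tuft cell markers was 265 and 307 CPM in WT and 190 and 179 CPM in cKO. Their directions were mixed, with 4 log2 fold changes below 0 and 2 above it (*Dclk1* 0.36 and *Pou2f3* 0.24). DESeq2 called 2 of the 6 at an adjusted p of 0.05, and edgeR called 0. The part of either cell type in the level of *Sag* was not tested.

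**Figure D2:**
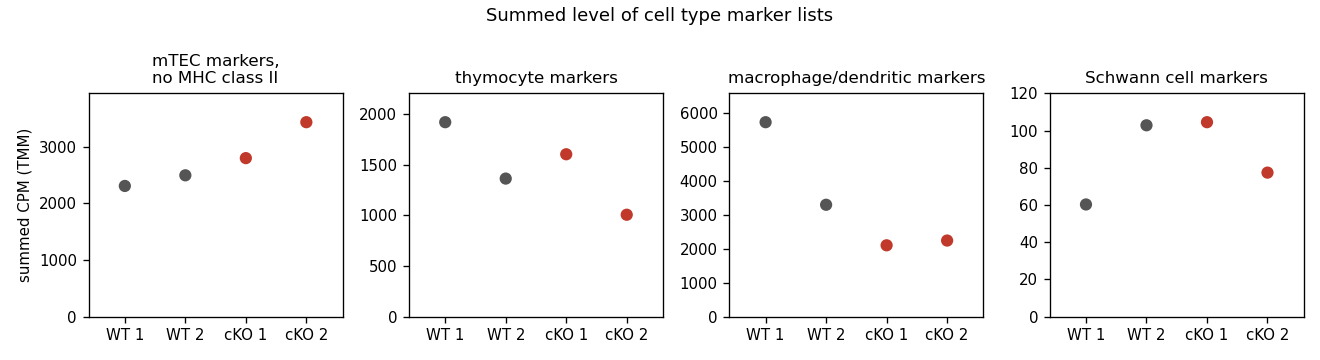
Summed CPM (linear axes that start at 0 and differ between panels) of the markers of mTECs (without the MHC class II genes), thymocytes, macrophages and dendritic cells, and Schwann cells in the 4 libraries, 1 point per library. The macrophage and dendritic cell sum is lower in both cKO libraries than in WT. The mTEC sum without the MHC class II genes is higher in both, and with these genes (not shown) it overlaps. The thymocyte and Schwann cell sums overlap between the groups.

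*Rbp3* encodes the interphotoreceptor retinoid-binding protein, which carries retinoids between photoreceptors and the retinal pigment epithelium, and lies on chromosome 14 from 33954003 to 33964216 (plus strand). It had 100 counts in WT 1, 48 in cKO 1 and 20 in cKO 2, and was listed at 0 in WT 2. The WT libraries were the highest and the lowest, with both cKO libraries between them. The log2 fold change was -0.46 with a standard error of 2.23 (adjusted p = 0.974 by edgeR), and its direction changed with single libraries (8.11 without WT 1) and with the model (1.96 with the replicate block).

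The sequences upstream of *Sag* and *Rbp3* are shown because the cone-rod homeobox factor CRX, which activates photoreceptor genes in the retina, recognises the core TAATCC. In the 250 bases before the start site, taken from RefSeq (GRCm38.p6) and written 5′ to 3′ on the strand of the gene, capitals mark TAATCC and the TATA box core TATAAA. All matches here lie on the opposite strand and so read GGATTA and TTTATA.
*Sag*, chr1:87803430-87803679: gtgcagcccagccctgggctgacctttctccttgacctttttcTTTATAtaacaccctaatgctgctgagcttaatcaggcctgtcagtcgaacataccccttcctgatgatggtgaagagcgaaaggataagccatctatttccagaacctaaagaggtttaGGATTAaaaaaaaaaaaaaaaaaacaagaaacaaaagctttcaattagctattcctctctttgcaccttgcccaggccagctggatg
*Rbp3*, chr14:33953753-33954002: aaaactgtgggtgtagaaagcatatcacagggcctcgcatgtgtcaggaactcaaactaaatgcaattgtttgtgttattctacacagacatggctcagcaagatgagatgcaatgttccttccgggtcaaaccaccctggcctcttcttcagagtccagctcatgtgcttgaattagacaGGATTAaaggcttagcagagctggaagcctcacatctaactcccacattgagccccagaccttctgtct
TAATCC began 87 bases before the start of *Sag* and 69 bases before that of *Rbp3*. Both strands were searched in the 9 upstream sequences that RefSeq gave for 7 of the 8 antigens, and only these 2 held TAATCC, against 6.25% of 32851 sequences of the same length. TATAAA was found before *Sag* alone, beginning 207 bases before the start, against 12.4% of all such sequences, and the motifs do not overlap. The 9 sequences held 2 to 4 CpG each. The median over all sequences was 6, and 44.4% of all sequences held 4 or fewer. These matches are a description of the letters, and the CRX gene itself did not separate the groups. *Crx* had 161 counts in WT 1 and 88 in cKO 2 and was listed at 0 in WT 2 and cKO 1, and it was named here after its values were seen.

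**Figure D3:**
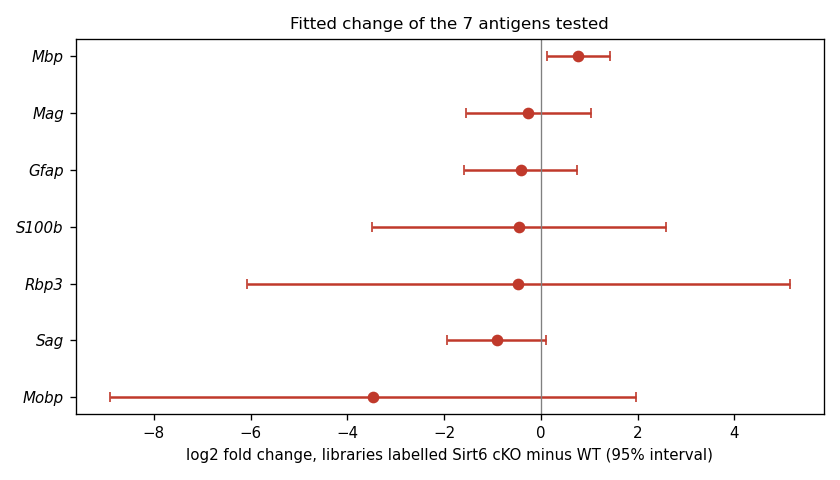
Log2 fold change of the 7 antigens tested (cKO minus WT, edgeR), with bars for the 95% interval. The interval of *Mbp* lies above 0, from 0.13 to 1.43, that of *Sag* reaches from -1.93 to 0.11, and those of *Mobp* and *Rbp3* span many log2 units.

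Because *Mbp* and *Sag* lay on opposite sides of 0, their ratio within each library was taken, which does not depend on library size. The TPM of *Mbp* was 4.39 and 5.68 times that of *Sag* in WT and 22.3 and 12.9 times in cKO. The pair was chosen because each gene already separated the groups, in opposite directions, so ratios without overlap follow from that choice and add no evidence. The summed level of the other 7 antigens without *Mbp* was 23.2 and 31.5 CPM in WT and 17.7 and 18.8 CPM in cKO, whereas the sum with *Mbp* was 120 and 170 CPM in WT and 246 and 194 CPM in cKO. *Mbp* was left out after its direction was seen, and the other 6 tested antigens all had log2 fold changes below 0. The lower sum without *Mbp* thus follows from that choice and adds no evidence.

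The regulators of tissue-restricted antigens were examined beside the antigens. *Aire* had a log2 fold change of 0.65 (adjusted p = 0.541 by edgeR), higher in cKO at the unadjusted threshold, as were *Cd80* and *Epcam* among the 10 mTEC markers. *Fezf2* had 43961 and 43889 counts (WT) against 23313 and 51499 (cKO), with a log2 fold change of -0.20 (adjusted p = 0.924 by edgeR). *Fezf2*, like *Sag* and *S100b*, had its lowest level in cKO 1. In cKO 2 the patterns differed, since *Fezf2* had its highest level there (803 CPM, against 672 and 690 CPM in WT) and *Sag* and *S100b* were below WT. A relation between them was not tested.

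The antigens were then set beside other genes of the same tissues. In the list of myelin and oligodendrocyte genes, 25 of 26 were tested, 2 were lower and 0 higher at the unadjusted p, and the median log2 fold change was -0.04. The lower genes were *Pmp22* (-1.18, adjusted p = 0.541 by edgeR), a protein of peripheral myelin, and *Klk6* (-0.75, adjusted p = 0.541), a secreted protease of oligodendrocytes. *Klk6*, *Pmp2* and *Cnp* had the highest mean TPM of the list, and *Pmp2*, a fatty acid binding protein of peripheral myelin, shares 86.7% of its 50-base words with an overlapping gene model. *Cnp*, a phosphodiesterase of myelin, had a log2 fold change of 0.31 and *Pmp2* of -0.23. *Aspa*, which cleaves N-acetylaspartate in oligodendrocytes, had 105 and 239 counts in WT, 13 in cKO 2 and was listed at 0 in cKO 1 (adjusted p = 0.582 by edgeR). *Olig2*, a transcription factor of the oligodendrocyte lineage, had 12 and 48 counts (WT) against 56 and 72 (cKO). The direction of *Mbp* was thus not shared by the 2 other myelin genes that passed the unadjusted threshold.

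Among 15 genes of astrocytes, 2 were higher and 0 lower at the unadjusted p, with a median of -0.19. The higher genes were the intermediate filament gene *Vim* (0.76, adjusted p = 0.547 by edgeR) and *Sox9* (0.43, adjusted p = 0.573), a transcription factor that epithelial cells also express. *Glul*, the glutamine synthetase gene, had a log2 fold change of -0.96 (adjusted p = 0.584 by edgeR), and 12.6% of its 50-base words occur in other genes. *Gja1*, *Sox9* and *S100a1* had the highest mean TPM of the list. *Gja1*, which encodes connexin 43, had a log2 fold change of 0.55, *Nes*, the nestin gene, of 0.73, *S100a1*, a calcium-binding protein, of -0.30 and *Fabp7*, a fatty acid binding protein, of -0.97, and none of these 4 passed the threshold.

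In the list of photoreceptor and visual cycle genes, 37 of 41 were tested, 1 was higher and 0 lower at the unadjusted p, and the median was 0.11. The higher gene was *Rom1*, a membrane protein of photoreceptor outer segment discs (0.91, adjusted p = 0.550 by edgeR), with 676 and 737 counts in WT and 1459 and 1098 in cKO. *Rdh12*, a retinol dehydrogenase, *Rom1* and *Rcvrn*, the recoverin gene, had the highest mean TPM. *Rdh12* had a log2 fold change of 0.43 and *Rcvrn* of 0.21. *Pde6b*, a catalytic subunit of the rod phosphodiesterase that acts in the same cascade as S-arrestin, had 106 and 95 counts (WT) against 15 and 16 (cKO), and did not pass the test (-2.63, adjusted p = 0.601 by edgeR). *Guca1a*, a guanylate cyclase activator of photoreceptors, had 40 and 24 counts in WT, 5 in cKO 1 and was listed at 0 in cKO 2. It passed the filter on low counts through its WT counts alone. *Grk1*, the rhodopsin kinase gene, had 41, 0, 48 and 116 counts in WT 1, WT 2, cKO 1 and cKO 2, and *Opn1sw*, the short-wave cone opsin gene, had 18, 0, 36 and 11, with 13.2% of its 50-base words found in another gene.

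Of 26 neuronal autoantigens, the targets of antibodies or T cells in autoimmune disease of neurons and synapses, 25 were tested, 2 were higher and 3 lower at the unadjusted p, and the median was 0.14. The lower genes were *Nefl* (-1.24, adjusted p = 0.541 by edgeR), the neurofilament light chain, *Dpp6* (-1.55, adjusted p = 0.550), a potassium channel subunit, and *Chrng* (-0.93, adjusted p = 0.577), the fetal acetylcholine receptor subunit of muscle. *Nefl* overlaps *Nefm* on the opposite strand and shares 31.8% of its 50-base words with it. The higher genes were *Gria1* and *Iglon5*. For the glutamate receptor gene *Gria1*, counts of 55 and 3 (WT) stood against 327 and 368 (cKO) (adjusted p = 0.552 by edgeR). *Iglon5*, a neuronal cell adhesion gene, was listed at 0 in both WT libraries, with 40 counts in each cKO library (adjusted p = 0.541 by edgeR). *Iglon5* passed the filter on low counts through its cKO counts alone. Its call as higher rests on WT values listed at 0, and whether these were an absence of reads was not tested. *Snap25*, *Nefl* and *Lrp4* had the highest mean TPM, and *Snap25*, a protein of synaptic vesicle fusion, had a log2 fold change of -0.40 and *Lrp4*, the agrin receptor of the neuromuscular junction, of 0.14. *Elavl4*, a neuronal RNA-binding protein, had -1.59 and *Gad2*, a glutamate decarboxylase, had -1.63, the latter on 31 or fewer counts per library, and neither passed the threshold. *Gad2* passed the filter on low counts through its WT counts alone.

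Over the 4 lists, edgeR and DESeq2 called 0 genes at an adjusted p of 0.05, and edgeR called 10 of the 102 tested at the unadjusted p. By list, this share was 8% for myelin, 13.3% for astrocyte, 2.7% for photoreceptor and 20% for neuronal genes, beside 8.58% of all genes tested. The 10 genes called and the neuronal share include *Iglon5*, which was listed at 0 in both WT libraries. The lists were described by these counts, shares and medians only.

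**Figure D4:**
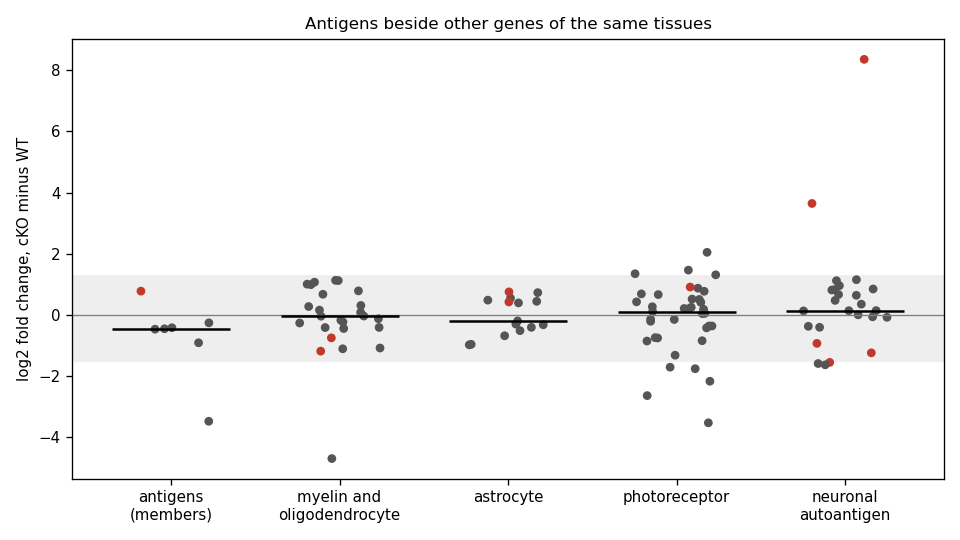
Log2 fold change (cKO minus WT, edgeR) of the 7 antigens tested and of the tested genes of 4 lists, 1 point per gene, in red where the unadjusted p was under 0.05, with a line at each median. The grey band spans the 5th to the 95th percentile of all genes tested, from -1.49 to 1.26, and most points of each list lie inside it.

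Detection in some libraries and not in others was frequent among the low antigens. Of the 8 antigens, all with 10 or more counts in at least 1 library, 3 were listed at 0 in another (*Mog*, *Mobp* and *Rbp3*), a share of 37.5%. The share was 35% in the photoreceptor list (14 of 40 genes), 19.2% in the neuronal list (5 of 26), 11.5% in the myelin list (3 of 26), 0 in the astrocyte list and 14.8% over all genes (2951 of 19953). No test was run on these shares.

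For the antigens, the gene of the 4 lists with the most similar pattern over the 4 libraries was found among 102 genes, as the smallest root mean square difference in centred log2 CPM. *Sag* was nearest to *Chrng* at 0.0764, with 719 and 729 counts in WT and 302 and 436 in cKO for *Chrng*. *Mag* was nearest to *Aqp4* at 0.111, *Mbp* to *Rom1* at 0.142 and *Gfap* to *Cldn11* at 0.186. *S100b* was nearest to *Ndrg2* at 0.210 and *Mobp* to *Guca1a* at 0.223. Both *Mobp* and *Guca1a* had passed the filter on low counts through their WT counts alone. Each difference is a description over 4 libraries, and with so few points the nearest of many genes is close in pattern by selection.

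**Figure D5:**
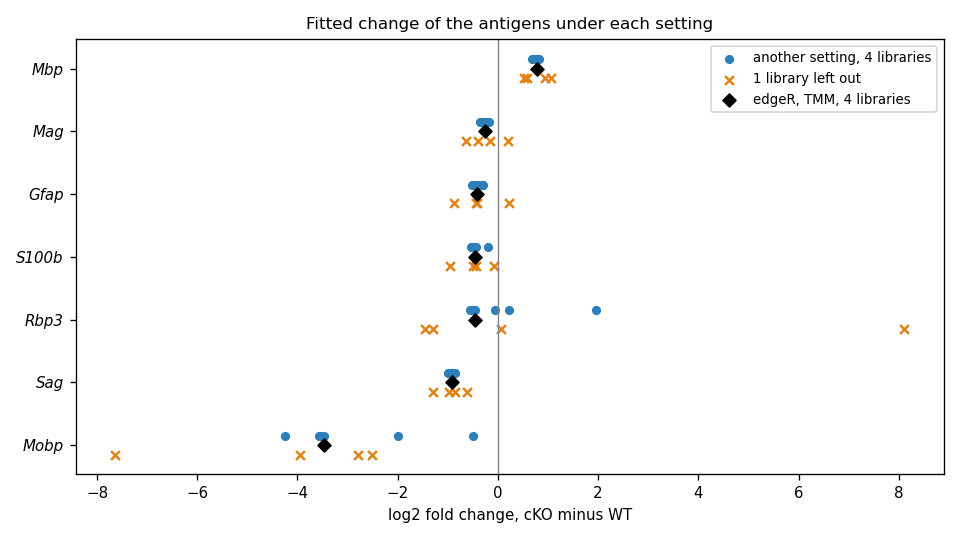
Log2 fold change (cKO minus WT) of the 7 antigens under the setting reported (black diamond), under other settings that keep the 4 libraries (blue points) and with 1 library left out (orange crosses). All values of *Mbp* lie above 0, all of *Sag*, *S100b* and *Mobp* lie below 0, and those of *Mag*, *Gfap* and *Rbp3* fall on both sides.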

How the data were processed

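mTECs were measured by RNA-seq in 4 libraries, 2 per group, and groups were taken from the labels. The authors used FastQC and Trim Galore on the reads, HISAT2 2.1.0 for alignment (mm10) and StringTie 1.3.3 for quantification, versions per the submitters' processing notes. The annotation and the use of strand are not given in the sources used here. The deposited counts are not normalized and hold only whole numbers. The deposited TPM tables ended in 1 line that names no gene and holds the column total, which was left out. Counts were tested with edgeR 4.0.16 in R 4.3.3 (TMM, filterByExpr with min.count 10 and min.total.count 15, glmQLFit, glmQLFTest), with Benjamini-Hochberg adjustment over all genes tested. The procedure was tested on simulated data.

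The antigens and lists were chosen with earlier results of these data known, and the lists were written by hand. Named were the antigens, *Sirt6*, *Aire*, *Fezf2* and, in each list, genes under an unadjusted p of 0.05, the 3 highest in mean TPM, the 2 largest fold changes in each direction and the nearest pattern of each antigen. Some genes that this rule names are not reported here. The alternatives were DESeq2 1.42.0, the replicate block, scaling by library size alone or by the upper quartile, no filter, a filter of TPM over 0.1 in every library, limma 3.58.1 on log2(TPM + 1) and log2(TPM + 0.1), and each library left out. Positions came from GENCODE on GRCm38, the assembly of mm10. No 2 libraries were as close as sampling noise (chi-square per gene of 166 or more).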

Additional observations from a re-analysis of the deposited data

How the results depend on the processing

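The number of antigens called at an unadjusted p of 0.05 was 1, and it was 1 in each alternative that kept 4 libraries, with a range of 0 to 1 when 1 library was left out (0 without WT 1 and without cKO 1). The number called at an adjusted p was 0 in all 12 alternatives. The group that loses a library then has a lone one, which is assumed to vary like the other group. *Mag* reversed to 0.21 and *Gfap* to 0.22 without WT 2, within ranges of -0.63 to 0.21 and -0.88 to 0.22. *Rbp3* reversed to 1.96 with the replicate block, to 0.22 by limma on log2(TPM + 0.1), to 8.11 without WT 1 and to 0.06 without cKO 2, and ranged from -1.46 to 8.11 with 1 library left out. The cause was not tested. *Sirt6* ranged from 0.19 to 0.54. The replicate numbers are shared between groups, but deviations of same-numbered libraries had a correlation of -0.05 over 18547 genes, so they are not treated as pairs. With the replicate block, listed genes called fell from 10 to 6, 5 of them shared, and genes called overall from 1592 to 1146. With a library left out, listed genes called ranged from 2 to 12 and all genes called from 735 to 1762, the lowest of both without cKO 1. Of the 10 listed genes called with 4 libraries, 0 were among those called without cKO 1, 3 without WT 1, 3 without WT 2 and 4 without cKO 2. Without WT 2, 6 listed genes were called. At an adjusted p, 1 gene was called by edgeR, 354 by DESeq2, 2 with the TPM filter, 2 by limma on log2(TPM + 0.1), and 0 with the block or without any 1 library. The share of calls that were higher was 61.4% with TMM, 48.4% with upper quartile normalization, 46.2% with library size alone, 50.9% and 51.8% by limma and 48.2% without cKO 2, and library size alone moved the median of all genes to -0.09. *Mobp*, *S100b*, *Rbp3* and *Mog* had 100 or fewer counts per library, which limits their fold changes.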
